A study of Homo sapiens with 6 samples.

Results

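The locus of miR-424, miR-503, miR-542 and miR-450 on the X chromosome holds 6 microRNA (miRNA) hairpins on the minus strand. The 7 miRNAs described here are mature arms of these hairpins and were taken by name from a table of 1000 mature miRNAs: hsa-miR-424-5p, hsa-miR-424-3p, hsa-miR-503-5p, hsa-miR-450a-5p, hsa-miR-450b-5p, hsa-miR-542-3p and hsa-miR-542-5p (hsa, for human, is left out below). All 7 passed the filter on low counts, as did 826 of the 1000 miRNAs. The data came from HEK 293T cells, an immortalized human embryonic kidney line, kept untreated in DMEM with fetal bovine serum and antibiotics. Small RNA was sequenced from 3 libraries of wild type cells and 3 libraries of a TENT3A/B double knockout strain, named ΔTUT4/7 because TENT3A and TENT3B are other names of TUT4 and TUT7. Both groups share the line and the culture medium. The knockout is a single strain that was made and published elsewhere and given to the study, so a difference between strains cannot be told apart from a difference carried by that strain for another reason.

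TUT4 and TUT7 add uridines to the 3′ ends of precursor miRNAs and of mRNAs, and a tail of several uridines marks an RNA for decay. A hairpin is cut by DROSHA and DICER into an arm from its 5′ side (5p) and an arm from its 3′ side (3p), and usually 1 of them is kept in the silencing complex while the other is lost. miR-424-5p and miR-503-5p are counted with the extended miR-15/16 family, known for repressing cyclins and CDC25A and so for restraining entry into the cell cycle. miR-542-3p is known for repressing survivin (BIRC5), and miR-424 and miR-503 have been studied in muscle differentiation. None (0 of 6) of its hairpins is on the study's list of group II hairpins, the class that takes a single added nucleotide before DICER cuts it.

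The sequences show which arms can act on the same targets. They were taken from RefSeq on GRCh38.p14 and run 5′ to 3′, with the seed, bases 2 to 8, in capitals. miR-424-5p and miR-503-5p share AGCAGC at bases 2 to 7 and part at base 8.
miR-424-5p: cAGCAGCAauucauguuuugaa
miR-503-5p: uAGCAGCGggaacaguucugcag
The other arms of both hairpins carry unrelated seeds.
miR-424-3p: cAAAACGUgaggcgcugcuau
miR-503-3p: gGGGUAUUguuuccgcugccagg
The miR-450 5p arms begin alike and the miR-450a 3p arms are near copies of each other.
miR-450a-5p: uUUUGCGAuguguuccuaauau
miR-450b-5p: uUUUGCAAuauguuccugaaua
miR-450a-1-3p: aUUGGGAAcauuuugcauguau
miR-450a-2-3p: aUUGGGGAcauuuugcauucau
miR-542-5p: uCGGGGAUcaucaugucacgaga
Between miR-450a-5p and miR-450b-5p, 6 of 22 aligned bases differ, 3 of them within the first 18, and the first difference is at base 7, inside the seed. Between miR-450a-1-3p and miR-450a-2-3p, 3 of 22 bases differ, of which 1 lies within the first 18. The reads were cut to 18 nt before alignment, so the miR-450a 3p arms were told apart by 1 base. None of the 6 members with a sequence shares its first 18 nt with another listed miRNA. Of these 6, miR-424-5p alone shares its seed with other listed miRNAs, namely miR-15a-5p, miR-15b-5p, miR-16-5p, miR-195-5p and miR-497-5p.

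The MIR424 and MIR503 hairpins give the arms that were higher in ΔTUT4/7 cells or did not pass the test, and are shown whole with both mature arms in capitals.
MIR424: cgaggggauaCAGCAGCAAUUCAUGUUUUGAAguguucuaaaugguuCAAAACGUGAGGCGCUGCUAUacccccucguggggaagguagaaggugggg
MIR503: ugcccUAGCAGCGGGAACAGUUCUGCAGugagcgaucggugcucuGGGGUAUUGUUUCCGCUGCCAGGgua
In hg38 the order along the strand is MIR424 (chrX:134546614-134546711), MIR503 (chrX:134546328-134546398), MIR542 (chrX:134541341-134541437), MIR450A2 (chrX:134540508-134540607), MIR450A1 (chrX:134540341-134540431) and MIR450B (chrX:134540185-134540262), a span of 6527 nt. In GENCODE release 44 MIR503 lies wholly inside the long non-coding RNA gene MIR503HG, where 1 annotated exon reaches into it, and MIR424 overlaps that gene by 29 of its 98 nt. MIR542 begins 1682 nt past the 3′ end of MIR503HG, and the MIR450 hairpins follow further downstream. MIR424 and MIR503 are 215 nt apart, MIR503 and MIR542 are 4890 nt apart, and the 4 hairpins from MIR542 to MIR450B are separated by 733, 76 and 78 nt. The mature miR-450a-5p is encoded by both MIR450A2 (chrX:134540564-134540585) and MIR450A1 (chrX:134540393-134540414), so its count belongs to both. The other arms of the first hairpins lie at chrX:134546680-134546701 for miR-424-5p, chrX:134546644-134546664 for miR-424-3p and chrX:134546371-134546393 for miR-503-5p.

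The libraries held between 4338558 and 7967606 counts. Levels are given as CPM, a count scaled to the total of its library. Wild type replicate 3 stood further from the other wild type libraries (chi-square over degrees of freedom 356 and 340) than those did from each other (118), while the ΔTUT4/7 libraries had values of 16 to 67. Together let-7 and miR-98 made up 19.2% to 19.7% of each ΔTUT4/7 library and 5.57% to 6.36% of each wild type library, and the other miRNAs divide the rest. When they were taken out of the totals, the median over the tested miRNAs moved from 0.013 to 0.234 on the log2 scale. Of 17 marker miRNAs of other cell types, 5 were listed, at a summed level of 39.5 to 43.4 CPM in ΔTUT4/7 and 70.3 to 121 CPM in wild type libraries. The largest was miR-142-3p, a blood cell miRNA, at 30.9 to 36.3 CPM and 49.5 to 96.4 CPM. By the rule given below, 4 of the 5 were called lower in ΔTUT4/7 cells, against 13.6% of all tested miRNAs. Among these 4, miR-122-5p had 7 counts in ΔTUT4/7 cells (edgeR adjusted p = 0.049). miR-143-3p, of fibroblasts and smooth muscle, was at 0.853 to 2.76 CPM and 11.04 to 13.1 CPM. The muscle markers looked for (miR-1-3p, miR-133a-3p, miR-206), the neuronal one (miR-124-3p) and those of pluripotent cells were not listed, and the liver marker miR-122-5p stayed at or under 1.76 CPM. Outside this list, and chosen after their values were seen, hsa-miR-133b, known from muscle, had means of 5.20 and 2.40 CPM and hsa-miR-129-5p, known from neurons, 109.9 and 22.8 CPM in ΔTUT4/7 and wild type cells. The part of the marker difference in the results below was not tested. The mRNAs of TUT4 and TUT7 are not part of a mature miRNA library, and the knockout was not checked here.

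The cluster was split in ΔTUT4/7 cells. Both arms of miR-503 and miR-424-3p rose, every tested arm of the miR-542 and miR-450 hairpins fell, and miR-424-5p did not pass the test. A miRNA passed the test when its adjusted p was under 0.05 in the quasi-likelihood test of edgeR (Benjamini-Hochberg, over the 826 tested miRNAs), and was called when its level also differed by at least 2-fold. Of the 7 members, 1 was called higher (miR-503-5p) and 3 were called lower (miR-450a-5p, miR-542-3p, miR-542-5p). Among all tested miRNAs, 16.5% were called higher and 13.6% lower. By the adjusted p alone, 2 members rose and 4 fell, against 23.2% and 21.9% of all tested miRNAs, or 45.2% in either direction. With let-7 and miR-98 taken out of the totals, the 3 members called lower were at -0.89 (miR-450a-5p), -0.92 (miR-542-3p) and -0.92 (miR-542-5p), under the 2-fold limit and past the adjusted p. The libraries of the strains did not overlap for 6 of the 7 members, against 58.4% of all tested miRNAs. Of the 391 miRNAs with a mean above 10 CPM, a range that holds all members, 54.7% passed the adjusted p. The median log2 fold change of the members was -0.79, beside 0.013 for all tested miRNAs. The same counts for all 11 arms of the hairpins, of which 10 were tested, were 2 called higher and 4 called lower, and 9 did not overlap. In these bulk libraries, fewer cells that express a miRNA and less of it in each cell cannot be told apart. The labels name the replicates as biological but not as separate cultures, so the p-values measure the spread between these libraries, which may be technical.

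**Figure D1:**
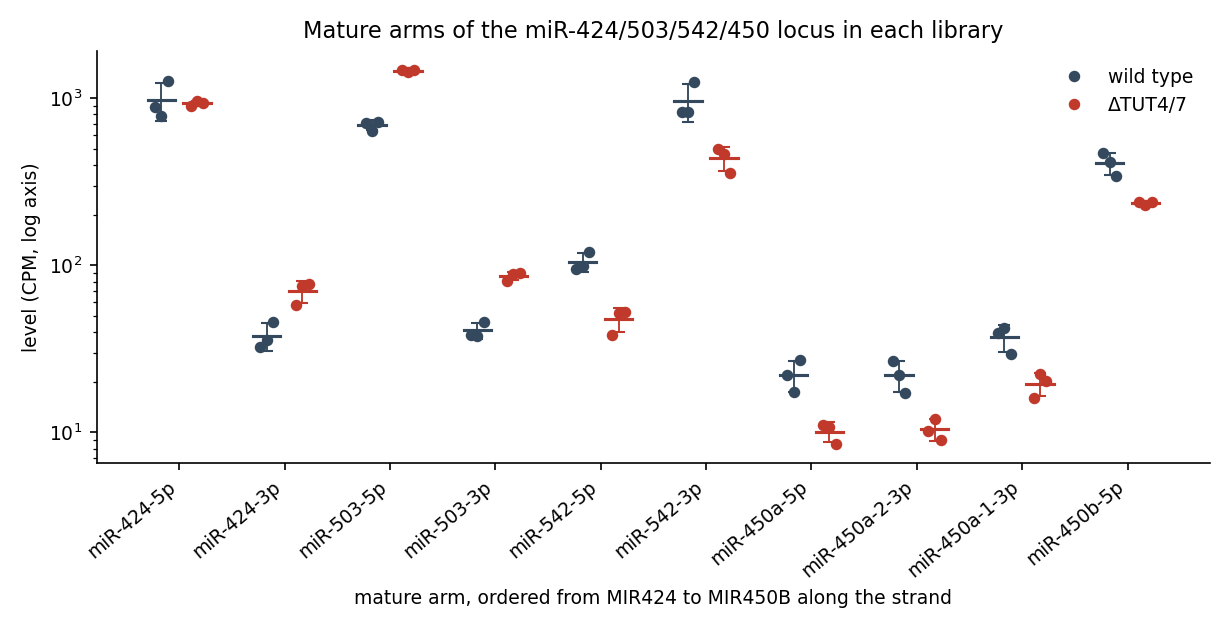
Level of each tested arm in CPM (log axis) in the 3 wild type libraries (dark) and the 3 ΔTUT4/7 libraries (red), with lines at the mean and bars of 1 SD, ordered along the strand. Both strains overlap for miR-424-5p alone, where wild type replicate 3 is the highest library at 1263 CPM; miR-503-5p sits at 1434 to 1482 CPM in ΔTUT4/7 and at 636 to 722 CPM in wild type libraries.

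miR-503-5p, the arm of its hairpin that carries the AGCAGC core, was the most abundant member in ΔTUT4/7 cells. It had 1466, 1434 and 1482 CPM in the ΔTUT4/7 libraries and 710, 636 and 722 CPM in the wild type libraries. All ΔTUT4/7 libraries were above all wild type libraries, and they differed among themselves less than the wild type ones. Strain means were 1461 ± 24.4 and 689 ± 46.7 CPM (SD, n = 3 each), with log2 fold change 1.08 (standard error, SE, 0.13, edgeR adjusted p = 4.34e-05), or 2.12-fold higher. It ranked 68 in abundance in every ΔTUT4/7 library and 96 to 97 in the wild type libraries. The fold change was within 1.03 and 1.12 when any 1 library was left out, but was 0.93 with the GC trend of each library removed, under the 2-fold limit and still past the adjusted p.

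miR-503-3p, the lesser arm of that hairpin and not a member by the name rule, moved with it. It had 81.0, 88.2 and 90.2 CPM in ΔTUT4/7 and 38.5, 38.0 and 46.1 CPM in wild type libraries, again without overlap. Its log2 fold change was 1.08 (SE 0.17, edgeR adjusted p = 4.27e-04), and 0.97 with the GC trend removed.

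miR-424-3p rose by less than 2-fold. It is the minor arm of MIR424, and its sequence has no AGCAGC core at the seed. The ΔTUT4/7 libraries had 58.1, 74.9 and 77.4 CPM and the wild type libraries 32.4, 35.5 and 46.1 CPM, so the lowest ΔTUT4/7 library lay above the highest wild type one. With means of 70.1 ± 10.5 and 38.0 ± 7.18 CPM (SD, n = 3 each), the log2 fold change was 0.89 (SE 0.20, edgeR adjusted p = 0.00395), or 1.85-fold. It reached 1.04 without wild type replicate 3, 1.00 without ΔTUT4/7 replicate 1 and 1.11 with let-7 and miR-98 taken out of the totals, and was then called higher.

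miR-424-5p, the major arm of MIR424 and the member with the seed of miR-16-5p, did not pass the test. Its ΔTUT4/7 libraries had 900, 968 and 934 CPM and its wild type libraries 891, 786 and 1263 CPM. The strains overlapped, and wild type replicate 3 was the highest of the 6 libraries while the other wild type libraries were the lowest. The means of 934 ± 33.9 and 980 ± 250 CPM (SD, n = 3 each) gave a log2 fold change of -0.07 (SE 0.18, edgeR adjusted p = 0.772), with a 95% interval of -0.45 to 0.31. Without wild type replicate 3 it was 0.16 (edgeR adjusted p = 0.244), and with let-7 and miR-98 taken out of the totals it was 0.15 (edgeR adjusted p = 0.5), so its direction is not settled. The interval does not reach the 2-fold limit in either direction.

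miR-542-3p, the major arm of MIR542, fell. It had 496, 461 and 356 CPM in ΔTUT4/7 and 825, 827 and 1251 CPM in wild type libraries. Every ΔTUT4/7 library was below every wild type library, and wild type replicate 3 was again the highest. Strain means were 438 ± 72.6 and 968 ± 246 CPM (SD, n = 3 each), with log2 fold change -1.14 (SE 0.20, edgeR adjusted p = 6.55e-04), or 2.21-fold lower. Without wild type replicate 3 the log2 fold change was -0.92 (edgeR adjusted p = 8.80e-04), which passes the adjusted p and not the 2-fold limit.

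miR-542-5p, the minor arm, fell by the same amount. Its ΔTUT4/7 libraries had 38.4, 51.8 and 52.7 CPM and its wild type libraries 95.4, 99.7 and 121 CPM. The gap between the strains was wider than the range within either. Means of 47.6 ± 7.98 and 105 ± 13.6 CPM (SD, n = 3 each) gave a log2 fold change of -1.14 (SE 0.19, edgeR adjusted p = 5.78e-04). The call was kept whichever library was left out, with log2 fold changes of -1.22 to -1.01.

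miR-450b-5p was the most abundant arm of the MIR450 hairpins. It had 238, 230 and 239 CPM in ΔTUT4/7 and 468, 416 and 342 CPM in wild type libraries. The strains did not overlap, and here wild type replicate 3 was the lowest wild type library. The log2 fold change was -0.79 (SE 0.16, edgeR adjusted p = 0.00182), with means of 236 ± 4.97 and 409 ± 63.3 CPM (SD, n = 3 each), or 1.73-fold lower.

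miR-450a-5p, made from MIR450A1 and MIR450A2, was the least abundant member. The ΔTUT4/7 libraries had 11.04, 10.8 and 8.53 CPM, from 148 counts in all, and the wild type libraries 21.985, 17.4 and 27.0 CPM, from 353 counts. All ΔTUT4/7 libraries were lower than all wild type libraries. Strain means were 10.1 ± 1.39 and 22.1 ± 4.76 CPM (SD, n = 3 each), with log2 fold change -1.11 (SE 0.24, edgeR adjusted p = 0.00241), or 2.17-fold lower. It was -0.95 without wild type replicate 3 and still passed the adjusted p (0.00581 by edgeR).

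The 3p arms of the MIR450 hairpins, which are not members by the name rule, tell their hairpins apart. miR-450a-2-3p had 10.2, 12.1 and 8.96 CPM in ΔTUT4/7 and 26.7, 22.2 and 17.3 CPM in wild type libraries, and was called lower (log2 fold change -1.08, SE 0.23, edgeR adjusted p = 0.0028). miR-450a-1-3p had 16.2, 22.2 and 20.3 CPM against 39.4, 42.2 and 29.5 CPM, and fell by less than 2-fold (-0.93, SE 0.22, edgeR adjusted p = 0.00435). Both arms were lowest, among the wild type libraries, in replicate 3, and neither overlapped between the strains. Leaving out single libraries moved both across the 2-fold limit but not the adjusted p: miR-450a-2-3p was at -0.93 without wild type replicate 1 and -0.99 without ΔTUT4/7 replicate 3, and miR-450a-1-3p at -1.06 without wild type replicate 3 and -1.03 without ΔTUT4/7 replicate 2. miR-450b-3p had 10 counts in ΔTUT4/7 and 12 in wild type cells over all libraries and was not tested.

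**Figure D2:**
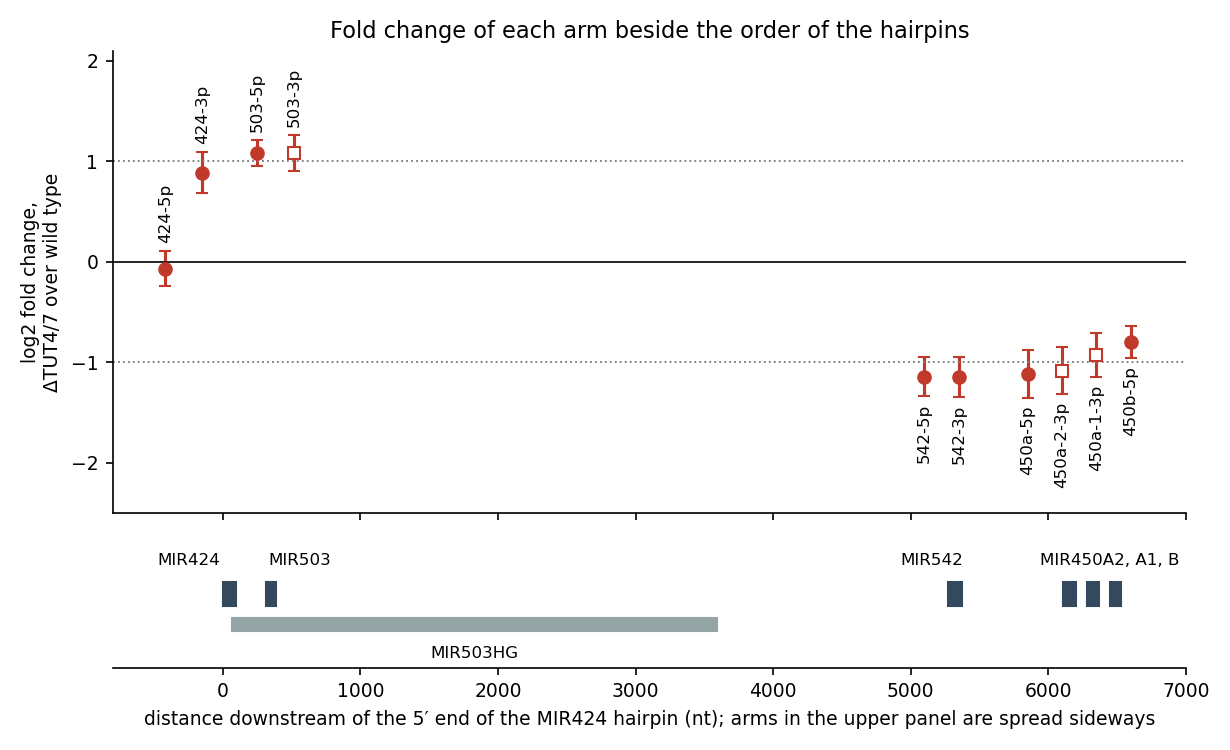
Upper panel, log2 fold change of each tested arm (ΔTUT4/7 over wild type) with bars of 1 standard error (SE), members as filled circles and other arms as open squares, spread sideways in the order of their hairpins, with dotted lines at the 2-fold limit. Lower panel, the 6 hairpins (dark) and the gene MIR503HG (grey) to scale, in nt downstream of the 5′ end of MIR424. The arms of MIR424 and MIR503 lie between -0.07 and 1.08, and those of MIR542 and the MIR450 hairpins between -1.14 and -0.79.

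The split in part followed the order of the hairpins, with miR-424-5p as the exception. The 3 arms that rose come from the pair of hairpins at the 5′ end, within or overlapping MIR503HG, and the 6 tested arms from beyond the 4890 nt gap all fell, but miR-424-5p, which held 92.3% to 96.5% of the counts of its hairpin, did not pass the test. Both arms of MIR503 together had 1547, 1522 and 1572 CPM in ΔTUT4/7 and 748, 674 and 768 CPM in wild type libraries. Both arms of MIR424 together had 958, 1043 and 1011 CPM and 924, 821 and 1309 CPM, with overlap. The higher summed level at the 5′ end of the locus was thus that of MIR503, whose mean was 817 CPM higher in ΔTUT4/7 cells, while that of MIR424 differed by -13.7 CPM. The arms of MIR542 and the MIR450 hairpins had 811, 788 and 687 CPM in ΔTUT4/7 and 1477, 1425 and 1789 CPM in wild type libraries. Against that sum, the ratio of the MIR503 arms was 1.91, 1.93 and 2.29 in ΔTUT4/7 and 0.507, 0.473 and 0.429 in wild type libraries, and the ratio of the MIR424 arms was 1.18, 1.32 and 1.47 and 0.625, 0.576 and 0.732. Neither ratio overlapped between the strains. These sums were chosen after the values were seen and were given no test. A ratio within a library does not depend on the library total, and so not on the larger share of let-7 in ΔTUT4/7 cells.

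The sum over the cluster does not show this split. The 7 members together had 3209, 3231 and 3150 CPM in ΔTUT4/7 and 3044, 2817 and 3772 CPM in wild type libraries, with overlap. The means of 3196 ± 41.9 and 3211 ± 499 CPM (SD, n = 3 each) had p = 1 in a 2-sided exact permutation test, which cannot go below 0.1 with 3 libraries in each strain. That is 0.320% and 0.321% of the counts. With all 11 arms the sums were 3313 ± 41.7 and 3312 ± 493 CPM (SD, n = 3 each).

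The order of the members changed with the strain. In wild type cells the levels in CPM ran from miR-424-5p (980) and miR-542-3p (968), which overlapped between libraries, through miR-503-5p (689), miR-450b-5p (409), miR-542-5p (105) and miR-424-3p (38.0) to miR-450a-5p (22.1). In ΔTUT4/7 cells it began with miR-503-5p (1461), followed by miR-424-5p (934), miR-542-3p (438), miR-450b-5p (236), miR-424-3p (70.1), miR-542-5p (47.6) and miR-450a-5p (10.1), and no neighbours in that order overlapped. The pairs that changed places were miR-503-5p with miR-424-5p and miR-542-3p, and miR-424-3p with miR-542-5p. CPM values of different arms also carry any difference in how well an arm is captured in the library, which was not tested.

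miR-503-5p against miR-424-5p compares the arms with the AGCAGC core within a library. The ratio of miR-503-5p to miR-424-5p was 1.63, 1.48 and 1.59 in ΔTUT4/7 and 0.796, 0.809 and 0.572 in wild type libraries. It was above 1 in every ΔTUT4/7 library and below 1 in every wild type library. The log2 ratio differed by 1.13 between the strains (2-sided exact permutation test, p = 0.1, the smallest that 3 against 3 libraries allow), and by 0.96 to 1.21 when any 1 library was left out. For miR-503-5p against miR-542-3p, a pair chosen after the values were seen, the ratio was 2.96, 3.11 and 4.16 in ΔTUT4/7 and 0.861, 0.769 and 0.577 in wild type libraries.

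Arms of 1 hairpin are cut from the same precursor, so their ratio does not depend on the amount of the hairpin. The ratio also carries any difference in the decay or capture of each mature arm, which was not tested. For miR-424, the count of 5p over 3p was 15.5, 12.9 and 12.1 in ΔTUT4/7 and 27.5, 22.1 and 27.4 in wild type libraries. The strains did not overlap, and the 3p arm made up 6.07% to 7.66% of the hairpin's counts in ΔTUT4/7 against 3.51% to 4.32% in wild type libraries. The log2 ratio was lower by 0.93 in ΔTUT4/7 cells (a difference of -0.93, SE 0.22, 95% interval -1.46 to -0.39), and limma over 200 hairpins with both arms tested gave an adjusted p of 0.0536, which misses the threshold, as did all 6 fits with a library left out (0.0815 to 0.175 by limma). By that rule 7.0% of the hairpins were called. With both arms above 10 CPM, which leaves 103 hairpins, the same difference had an adjusted p of 0.0126 by limma, and 24.3% of the hairpins were called.

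No such shift was found for miR-503. Its 5p to 3p ratio was 18.1, 16.3 and 16.4 in ΔTUT4/7 and 18.4, 16.7 and 15.7 in wild type libraries, with overlap, and the difference of the log2 ratio was 0.003 (95% interval -0.48 to 0.49, adjusted p = 0.995 by limma). For miR-542, whose 3p arm is the major one, the 3p share was 92.8%, 89.9% and 87.1% in ΔTUT4/7 and 89.6%, 89.2% and 91.2% in wild type libraries. The strains overlapped, and the log2 ratio of 5p to 3p differed by -0.02 (SE 0.29, 95% interval -0.73 to 0.69, adjusted p = 0.977 by limma). These intervals leave room for a shift in the arm ratio of under 2-fold, so neither hairpin is shown to be without one. Whether the shift of miR-424 differs from that of miR-503 or miR-542 was not tested.

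**Figure D3:**
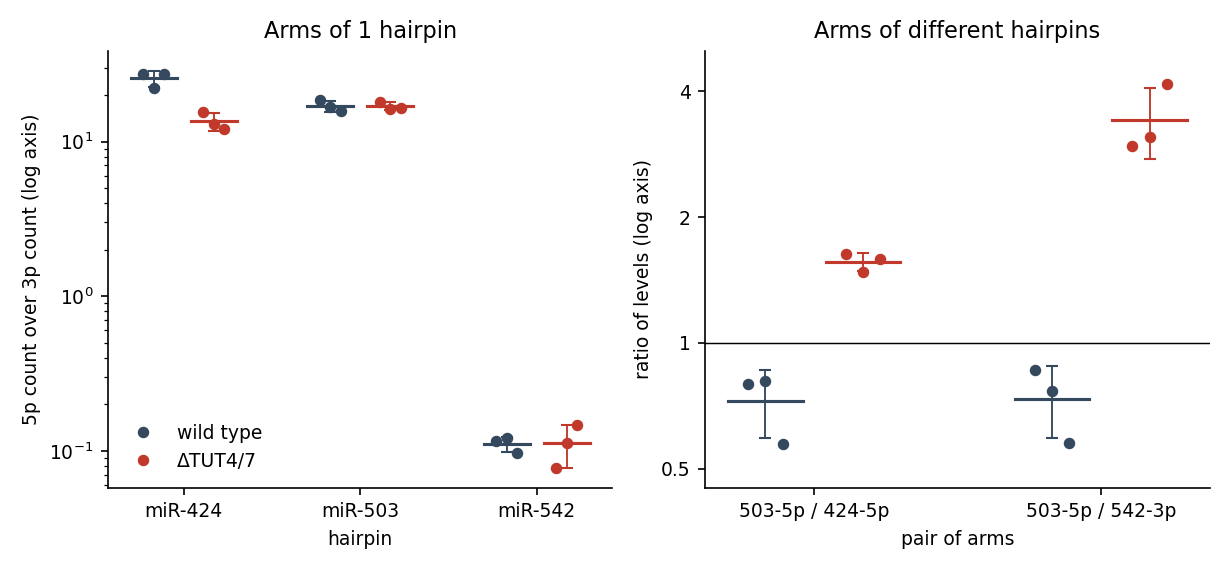
Ratios of counts within each library (log axes) in wild type (dark) and ΔTUT4/7 (red) cells, with the mean and 1 SD. Left, 5p over 3p for the hairpins of miR-424, miR-503 and miR-542; the strains are apart for miR-424 alone, at 12.1 to 15.5 in ΔTUT4/7 and 22.1 to 27.5 in wild type libraries. Right, miR-503-5p over miR-424-5p and over miR-542-3p, above 1 in all ΔTUT4/7 libraries and below 1 in all wild type libraries.

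The other miRNAs with the AGCAGC core show how much of it the locus supplies. The core stands at bases 2 to 7 of 7 of the 897 listed miRNAs with a sequence, and all 7 were tested.
miR-16-5p: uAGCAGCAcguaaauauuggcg
miR-15a-5p: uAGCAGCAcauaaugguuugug
miR-15b-5p: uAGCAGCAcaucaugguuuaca
miR-195-5p: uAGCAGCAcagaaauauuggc
miR-497-5p: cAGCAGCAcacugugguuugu
These 5 are encoded on other chromosomes. miR-16-5p, the most abundant miRNA of every library, was lower in ΔTUT4/7 cells by less than 2-fold, at 176540 ± 1820 CPM against 251750 ± 24504 CPM (SD, n = 3 each), or -0.51 in log2 fold change (edgeR adjusted p = 8.79e-04). Its wild type counts were deposited to 3 digits only. miR-15b-5p (-0.76) and miR-15a-5p (-0.56) also fell, miR-497-5p rose (0.58, edgeR adjusted p = 0.00785) and miR-195-5p did not pass the test (0.17, edgeR adjusted p = 0.409). The decrease of miR-15a-5p no longer passed with let-7 and miR-98 taken out of the totals (-0.34) or with the GC trend removed (-0.40). In these 2 settings the decrease of miR-16-5p shrank to -0.29 (edgeR adjusted p = 0.0234) and -0.37 (edgeR adjusted p = 0.0496). The increase of miR-497-5p no longer passed without ΔTUT4/7 replicate 2 (edgeR adjusted p = 0.0539). miR-503-5p was the only one of the 7 called by the 2-fold limit, where 30.0% of all tested miRNAs were called in either direction.

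Within this family, miR-424-5p and miR-503-5p took together a larger share in ΔTUT4/7 cells, mostly through miR-503-5p. Their summed share of its CPM was 1.27%, 1.28% and 1.31% in ΔTUT4/7 and 0.631%, 0.485% and 0.796% in wild type libraries, without overlap. miR-503-5p alone took 0.761% to 0.803% and 0.217% to 0.290%, while miR-424-5p took 0.482% to 0.514% and 0.268% to 0.506%, with overlap. That overlap came from wild type replicate 3 (0.506%). The mean share was higher in ΔTUT4/7 cells by 0.521 percentage points for miR-503-5p and by 0.125 for miR-424-5p. miR-16-5p took 94.6% to 94.8% and 94.3% to 95.5%. In CPM, miR-503-5p was higher and miR-16-5p lower in ΔTUT4/7 cells, and the sum of the family was 186550 ± 1914 against 265340 ± 24062 CPM (SD, n = 3 each). This sum is mostly miR-16-5p, so the limits of that decrease apply to it as well.

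**Figure D4:**
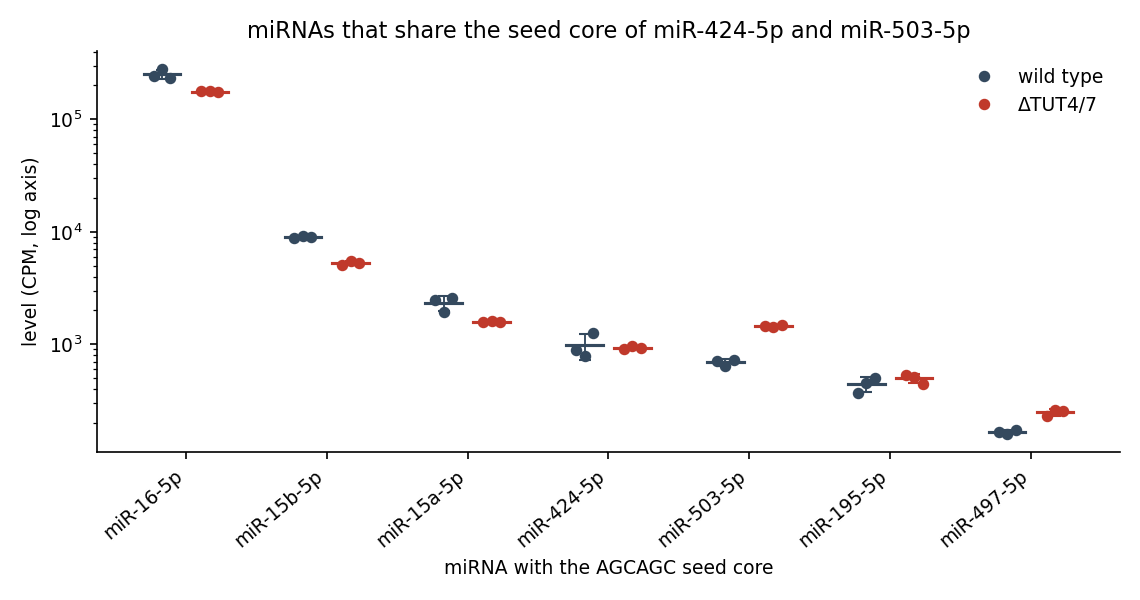
Level in CPM (log axis) of the 7 miRNAs with the AGCAGC core in each wild type (dark) and ΔTUT4/7 (red) library, with the mean and 1 SD. miR-16-5p lies at 174580 CPM or more in all libraries, above all others; miR-503-5p alone was called, at 1461 against 689 CPM.

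The nearest other miRNA cluster, miR-106a-363, gives neighbours on the same chromosome that are not part of the locus, with miR-106a-5p 369918 nt from MIR450B. Of 8 arms looked for, 3 were listed and 2 were tested. miR-18b-5p is 1 of 27 listed miRNAs whose first 18 nt are shared with another listed miRNA. Reads cut to 18 nt do not tell such miRNAs apart, so its counts rest on how shared reads were divided. miR-18b-5p had 51.4, 52.4 and 52.5 CPM in ΔTUT4/7 and 21.1, 21.6 and 53.5 CPM in wild type libraries. Wild type replicate 3 alone lay above the ΔTUT4/7 libraries, and the log2 fold change was 0.71 (SE 0.31, edgeR adjusted p = 0.0828) with it and 1.29 (edgeR adjusted p = 1.62e-04) without it. miR-106a-5p had a log2 fold change of 0.42 (edgeR adjusted p = 0.160) and 0.68 without that library (edgeR adjusted p = 0.0154). By edgeR 0 of these 2 were called, and 1 of them, miR-18b-5p, was under 0.05 before adjustment. miR-20b-5p had 6 and 4 counts and was not tested.

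**Figure D5:**
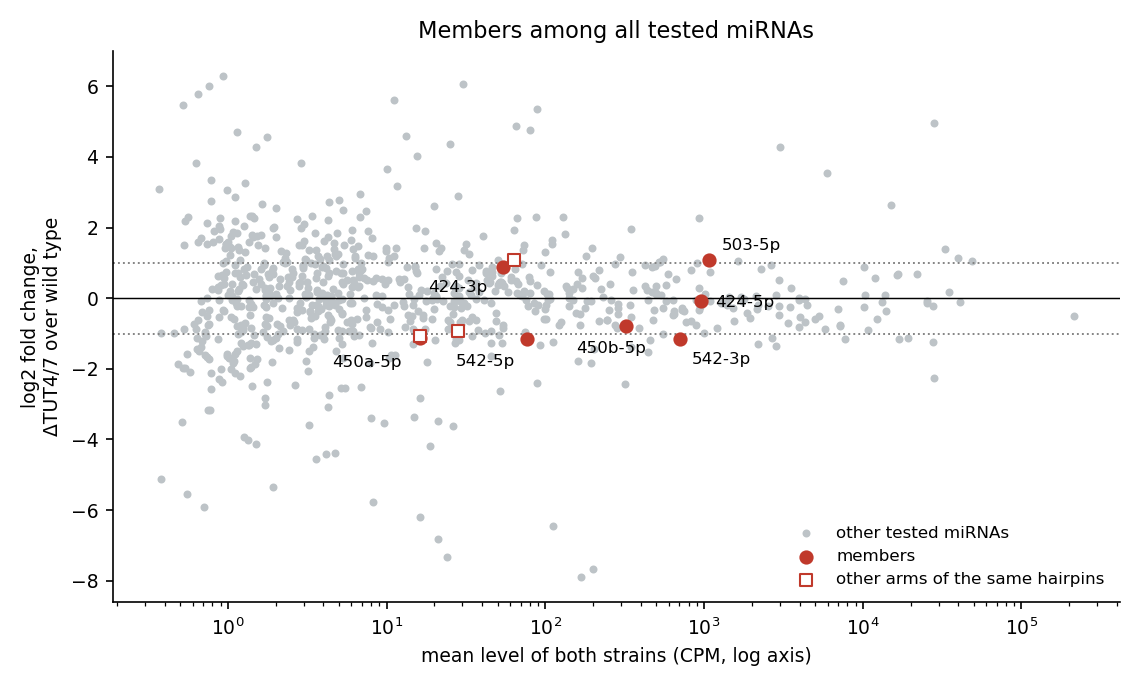
Log2 fold change (ΔTUT4/7 over wild type) against the mean level of both strains in CPM (log axis) for the 826 tested miRNAs (grey), with the 7 members (filled circles) and the 3 tested other arms of the same hairpins (open squares), and dotted lines at the 2-fold limit. The members lie between -1.14 and 1.08, within the spread of miRNAs of like abundance.

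To find the miRNAs most like the members over the 6 libraries, the root mean square distance was taken between log2 CPM profiles with 1 CPM added, each centred on its mean, among miRNAs with a mean above 10 CPM. With 3 libraries in each strain this distance is set largely by the strain difference, so it restates the fold changes above and is no further evidence for them. The 5 nearest of 384 to the mean profile of the members, in which the arms that rose and fell average out, were miR-148b-3p, miR-141-3p, miR-301a-3p, miR-625-5p and miR-365b-3p, at distances of 0.0597 to 0.0770. Their log2 fold changes lay between -0.45 and -0.25. Like miR-18b-5p, miR-365b-3p shares its first 18 nt with another listed miRNA, so its counts rest on how shared reads were divided. Distances to single members were added after the values were seen. The nearest of 390 to miR-542-3p was miR-450a-5p, the other arms of MIR542 and the MIR450 hairpins ranked 30 to 91, and miR-503-3p ranked 2 in distance to miR-503-5p.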

How the data were processed

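Total RNA of wild type and ΔTUT4/7 HEK 293T cells was made into libraries with the QIAseq miRNA Library Kit. The authors trimmed reads to 18 nt, used Bowtie 1.0.0 against hg38 and quantified mature miRNAs in Partek 10.0.22. The deposited table holds estimated counts, which divide reads that match several miRNAs among them. All values are whole. The 3 largest values, those of miR-16-5p in the wild type libraries, are written to 3 digits. The use of unique molecular identifiers was left unstated in the labels and methods. A further deposited table of the authors' comparison (p-values, ratios, fold changes and means of CPM) was not used.

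The counts, 4338558 to 7967606 per library, were tested with edgeR 4.0.16 in R 4.3.3 (quasi-likelihood test, normalization factors of 1, highest count above 7, Benjamini-Hochberg adjustment; common dispersion 0.0358). Ratios of arms, log2((5p + 0.5)/(3p + 0.5)), were tested with limma 3.58.1. Intervals are 95% intervals from the fitted degrees of freedom. Single values per library were compared with 2-sided exact permutation tests. The scripts were tested on simulated data. Coordinates are those of RefSeq GRCh38.p14 and GENCODE release 44 (hg38); the starts of 892 of the 897 listed miRNAs with a RefSeq mature sequence match the deposited ones, whose stops are 1 higher throughout. Figures and summaries used Python 3.11.15, pandas 2.3.3, numpy 2.4.6, scipy 1.17.1 and matplotlib 3.10.9.

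Samples were grouped by their labels. Named are the 7 members, the listed arms of their hairpins, of the AGCAGC family and of the miR-106a-363 cluster, and the 5 miRNAs nearest to the mean profile of the members. The members and lists were chosen with earlier results of these data known. The alternatives were TMM and RLE factors, totals without let-7 and miR-98 or without the members, DESeq2 1.42.0, limma-trend, no filter, filterByExpr, a replicate block, each library left out, removal of the GC trend (lowess span 0.5), sums over shared first 18 nt, other call rules, another pseudocount of 1 and arms above 10 CPM.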

Additional observations from a re-analysis of the deposited data

How the results depend on the processing

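By the adjusted p alone, 2 members rose and 4 fell in each fit in which all 7 were tested. miR-542-3p had no sequence in the table used and so no value with the GC trend removed, where 2 rose and 3 fell. The 2-fold limit was what moved. With let-7 and miR-98 taken out of the totals, 2 members were called higher and 0 lower. Over all tested miRNAs, 183 were then called higher and 81 lower, against 136 and 112 as reported. In that setting miR-424-5p was at 0.15 and the summed members were 551 CPM higher in ΔTUT4/7. With the GC trend removed, 0 members and 0 of the AGCAGC family were called higher, beside 115 of all miRNAs tested in that setting. By the adjusted p alone, 2 and 4 members and 2 and 3 of the AGCAGC family passed (higher and lower). Of all tested miRNAs, 192 (23.2%) and 181 (21.9%) passed, against 136 and 112 called with the 2-fold limit. Among miRNAs with a mean above 10 CPM, 54.7% passed in either direction.

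When each library was left out in turn, 1 to 2 members were called higher and 1 to 3 lower. Of all tested miRNAs, 111 to 136 were called higher and 93 to 106 lower in these fits. miR-424-5p ranged from -0.21 to 0.16 and the summed members differed by -212 to 266 CPM. The miR-106a-363 arms called higher were 0 to 1. The miR-424 arm ratio ranged from -1.03 to -0.85 and the miR-542 arm ratio from -0.24 to 0.22. The miR-424 arm ratio missed the threshold as reported (adjusted p = 0.0536 by limma) and passed in 0 of the 6 fits that left out a library (adjusted p 0.0815 to 0.175 by limma). It passed with 1 count added (-0.93, adjusted p = 0.048 by limma) and with both arms above 10 CPM (-0.93, adjusted p = 0.0126 by limma). The causes were not tested beyond the construction of each alternative.

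Same-numbered libraries did not deviate together (r = -0.17, -0.162 and -0.251 over 391 miRNAs, against -0.099 to 0.195 for other pairs). Deviations were centred within each strain of 3 libraries, so these correlations cannot settle whether the numbers pair the samples. The labels do not say. With the replicate number as a block, 131 and 102 miRNAs were called higher and lower, against 136 and 112, and no member's call changed. The block gave -0.04 for miR-424-5p, 0.89 for miR-424-3p, 1.09 for miR-503-5p, -1.10 for miR-450a-5p, -0.78 for miR-450b-5p, -1.13 for miR-542-3p and -1.15 for miR-542-5p. Under it the adjusted p of the miR-424 arm ratio was 0.152 by limma. Depth limits miR-450a-5p most, at 148 counts in ΔTUT4/7.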
